A study of Mus musculus with 15 samples.

Results

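Pde2a and 9 further genes of the cyclic AMP (cAMP) pathway were followed through 15 RNA-seq libraries of mouse CD8+ T cells. The 10 genes were Pde2a, Pde3b, Pde4a, Pde4b, Pde4d, Pde7a, Adcy7, Adora2a, Prkar1a and Prkacb, out of 55536 annotated genes in the count table, of which 17366 had enough counts to be tested. Pde2a was picked for its loss in the Ag+Costim group, so the measured values chose it, and its gene-level values are given as a description with no test. The other 9 genes were listed as partners in the same pathway, with earlier results of these data known. All 10 passed the filter on low counts.

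The libraries fell into 3 groups of 5. All cells came from OT-I mice on the C57BL/6J background, which carry a transgenic T cell receptor for an ovalbumin peptide and, per the study's methods, lack Rag1 or Rag2, so that few lymphocytes with another receptor can form. Naive cells were CD8+ T cells of untreated OT-I mice and were never transferred. In the Ag group, OT-I cells were moved into wild-type C57BL/6J recipients that received the peptide antigen and, per the methods, control rat IgG. In the Ag+Costim group the recipients received the peptide with agonist antibodies to OX40 (CD134) and 41BB (CD137), 2 costimulatory receptors of the tumour necrosis factor receptor family. Spleens and lymph nodes were taken at day 4 per the labels, while the methods give a slightly earlier time. They were sorted for CD8+ T cells, with the methods adding gates on a congenic marker and the receptor chains. The recipients kept their own lymphocytes. Transfer, host and antigen set both treated groups apart from Naive and cannot be told apart. Mice were of both sexes and, per the methods, aged 1.5 to 8 months. The labels do not tie libraries to animals, and the paper describes the 5 of each group as individual biological replicates.

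Cyclic AMP is a small second messenger that restrains T cell activation. Ligands such as adenosine, prostaglandin E2 and catecholamines act on receptors coupled to the G protein Gs, which switches on adenylyl cyclases, the enzymes that make cAMP. The main effector is protein kinase A (PKA), held inactive by its regulatory subunits until cAMP binds them, and phosphodiesterases (PDEs) end the signal by hydrolysing cAMP. Pde2a encodes a PDE that hydrolyses both cAMP and cyclic GMP and is stimulated by cyclic GMP. Pde3b encodes a PDE that cyclic GMP inhibits, and Pde4a, Pde4b, Pde4d and Pde7a encode PDEs specific for cAMP.

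Levels are given in CPM, a gene's counts per 1000000 counts of its library over annotated genes. Totals ran from 4865952 to 25280667 counts per library. All Ag libraries and Ag+Costim 1 to 3 shared a sequencing lane, and Ag+Costim 4 and 5 shared another with all Naive libraries, so no lane held both Ag and Naive. Markers of CD8+ T cells summed to 3705 CPM or more in every library, but libraries within a group were not alike. Markers of naive T cells (6 genes, among them Ccr7 and Il7r) summed to 4289 CPM in Ag 1 and 4361 CPM in Ag 4, against 1345, 1252 and 1194 CPM in Ag 2, Ag 3 and Ag 5. They reached 871 to 1604 CPM in Ag+Costim and 4606 to 7180 CPM in Naive 1 to 4, with 2372 CPM in Naive 5. By their sum, markers of activated T cells (6 genes) showed the opposite order, at 318 and 346 CPM in Ag 1 and Ag 4. The other 3 Ag libraries had 1025 to 1471 CPM. Of these markers, Gzmb, Mki67, Il2ra and Tbx21 were lower in Ag 1 and Ag 4 than in the other 3. Ifng was higher there, at 12.0 and 14.0 CPM against 4.15, 4.73 and 9.39 CPM. Cd44, at 74.2 and 79.9 CPM, lay below Ag 2 (97.5 CPM) but above Ag 3 and Ag 5 (65.2 and 52.0 CPM). The summed markers of activated T cells were at 1017 to 1545 CPM in Ag+Costim, 119 to 499 CPM in Naive 1 to 4 and 1055 CPM in Naive 5. Naive 5 also held 991 CPM of myeloid markers. The lowest total belonged to Ag 3, which had 1238 CPM of erythroid markers. B cell markers (6 genes) summed to 566 to 1033 CPM in Naive, 554 to 1425 CPM in Ag, highest in Ag 1 and Ag 4, and 457 to 692 CPM in Ag+Costim. Library measures differed within Ag as well. The sequencing core listed input amounts of 1.4 and 1.8, with no unit, for Ag 2 and Ag 5 against 9.4 to 10 for the other 3 Ag libraries. Ag 2 and Ag 5 had counts for 21705 and 20949 genes, against 31845 to 44408 in the other 3 and 23891 to 25410 in Ag+Costim, which had an input amount of 10 throughout. In Ag 3 16.9% of the sequenced reads were counted, against 37.4% to 53.6% in the other 4 Ag libraries. What part input had in the split of the Ag group was not tested. Fewer cells of a type and less RNA per cell cannot be told apart in such bulk samples.

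The first question is what was counted as Pde2a. The gene (ENSMUSG00000110195.1) lies on the plus strand of chromosome 7 at 101421691 to 101512827 in GRCm38, the mm10 assembly, and another protein-coding model, Gm45837 (ENSMUSG00000030653.17, 101410886 to 101512819), covers all but its last bases on the same strand. Of the 6149 exonic bases of Pde2a, 3955 (64.3%) were also exonic in Gm45837. The full-length transcript Pde2a-201 and the only Gm45837 transcript shared 3751 windows of 50 bases, which was 90.0% of those of Pde2a-201 and 91.7% of those of Gm45837. They part at the first exon, and both join the same base, 101451402. From there on they share most but not all bases, and Gm45837-201 has 32 exons against 31 of Pde2a-201. The first exon of Gm45837 lies at the end of the neighbouring gene Arap1, with which the model shares 150 exonic bases. The first exons are most of what tells these models apart, and their coding bases are shown for that reason. Bases of the first exon, which the other model lacks, are in lower case and the first shared bases are in capitals. The 150 bases shared with Arap1 lie in the 184-base first exon of Gm45837. Its lower-case bases are therefore not all its own.
Pde2a-201: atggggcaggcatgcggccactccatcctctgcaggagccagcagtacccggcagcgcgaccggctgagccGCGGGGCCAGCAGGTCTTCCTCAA
Gm45837-201: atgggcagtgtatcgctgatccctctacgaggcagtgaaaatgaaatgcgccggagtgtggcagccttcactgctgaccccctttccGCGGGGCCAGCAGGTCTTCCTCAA
The lower-case stretch of Pde2a-201 holds 71 bases (chr7:101421925-101421995) and that of Gm45837-201 holds 87 bases (chr7:101410983-101411069), each read from the GENCODE transcripts of that build. A read within the shared exons fits both models, and the deposited counts rest on how StringTie divided such reads.

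Under the deposited assignment, Pde2a stood at 198, 176, 234, 207 and 93.2 CPM in Naive 1 to 5. In Ag it stood at 154, 0.843, 5.14, 135 and 26.3 CPM. In Ag+Costim it stood at 0.127, 0.621, 0.267, 0.121 and 0.131 CPM, which is 2 to 8 counts per library and 18 counts in all. Every Ag+Costim library was below every Ag library, and Ag libraries spread from the Naive range down to nearly the Ag+Costim range. Naive averaged 182 ± 53.7 CPM, Ag 64.2 ± 74.2 CPM and Ag+Costim 0.254 ± 0.214 CPM (SD, n = 5 each).

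Gm45837 did not share this pattern. Its levels were 64.9, 17.9, 40.6, 13.7 and 27.5 CPM in Naive, 80.2, 29.2, 48.3, 25.9 and 1.39 CPM in Ag, and 35.8, 43.7, 26.1, 9.58 and 25.5 CPM in Ag+Costim. The 3 ranges overlapped. Of the counts given to either model, Pde2a received 75.4% to 93.8% in Naive and 0.353% to 1.40% in Ag+Costim. Within Ag the share was 65.8%, 2.80%, 9.62%, 83.9% and 95.0%, so that Ag 2 and Ag 5, with 464 and 498 counts for both models together, were assigned almost wholly to opposite models.

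The sum of both models separated Ag+Costim from Naive by far less than Pde2a alone did. Between Ag and Naive the means differed 2.12-fold for the sum and 2.83-fold for Pde2a, with overlapping ranges in both cases. Summed levels were 263, 194, 275, 220 and 121 CPM in Naive, 234, 30.1, 53.4, 160 and 27.7 CPM in Ag, and 35.9, 44.3, 26.3, 9.70 and 25.6 CPM in Ag+Costim. The means were 215 ± 61.8, 101 ± 92.2 and 28.4 ± 13.0 CPM (SD, n = 5 each). All 5 Ag+Costim libraries were below all 5 Naive libraries, 7.57-fold by the means. Ag+Costim and Ag overlapped, because Ag 2 and Ag 5 lay inside the Ag+Costim range, and the 3.57-fold difference of their means was carried by Ag 1 and Ag 4 at 234 and 160 CPM. On the sequencing lane that held both Naive and Ag+Costim, Ag+Costim 4 and 5 were at 9.70 and 25.6 CPM and the 5 Naive libraries at 121 CPM or more. No test is given for the sum, since it holds the counts that the choice of Pde2a used. The library-by-library plot of the locus shows both models and their sum.

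**Figure D1:**
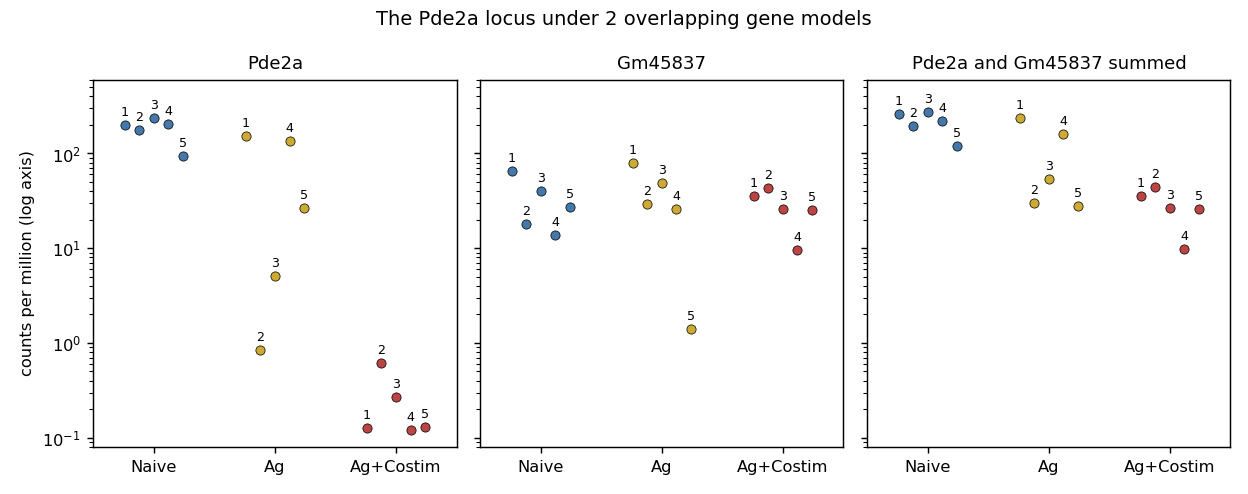
CPM (log axis) of Pde2a, of the overlapping model Gm45837 and of their sum in each library, with the replicate number above each point and colours for the 3 groups. Pde2a alone was at 0.621 CPM or less in all Ag+Costim libraries, Gm45837 overlapped between groups, and the sum in Ag+Costim (9.70 to 44.3 CPM) overlapped with Ag 2 and Ag 5 but not with Naive.

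Some Pde2a transcripts hold sequence that the spliced Gm45837 transcript lacks, and windows were compared with that transcript only. Pde2a-205, a retained-intron transcript, had 528 of its 590 windows (89.5%) outside it. It received 14 to 57 counts in each Naive library, 16, 5, 5, 25 and 5 counts in Ag 1 to 5, and 0, 6, 0, 1 and 0 counts in Ag+Costim 1 to 5. Pde2a-203 and Pde2a-208, retained-intron transcripts that also lie mostly outside the Gm45837 exons, received 4 counts or fewer in every library. Pde2a-207, a non-coding transcript with 35.9% of its windows outside Gm45837, received 11 to 41 counts in Naive, 13, 0, 2, 17 and 1 counts in Ag, and 0 in every Ag+Costim library. These counts are few, and the libraries differ in their totals. Gm45837 spans the same positions on the same strand, so reads from its unspliced RNA would fit these transcripts too. The counts therefore cannot tell the 2 models apart. Full-length Pde2a-201 received 1380 to 5814 counts in Naive and 0 in every Ag+Costim library and in Ag 3. Another protein-coding transcript, Pde2a-204, which starts further downstream at 101450520, received counts only in Naive 2 (324), Naive 4 (409), Ag 3 (15) and Ag 5 (100). The microRNA gene Mir139, which lies within Pde2a, had 0 counts in all 15 libraries. It is annotated at 68 bases and the libraries were made from poly(A) RNA, so these counts do not tell whether it was expressed.

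In Ag and Naive the extremes of the summed level went with the naive-cell markers. Ag 1 and Ag 4, with the highest naive-cell markers of their group, had its highest summed levels, and Naive 5, with the lowest naive-cell markers of its group, had its lowest. The order did not hold throughout, since Ag 3 (1252 CPM of markers) had 53.4 CPM at the locus and Ag 2 (1345 CPM) had 30.1 CPM. Within Ag+Costim the highest naive-cell markers were in Ag+Costim 3 (1604 CPM), with 26.3 CPM at the locus, and the highest level at the locus was 44.3 CPM in Ag+Costim 2 (1215 CPM of markers). Pde2a is also known from endothelial cells. Among their markers, Pecam1, which naive T cells express too, carried most of the signal, and Kdr, Cdh5, Tek and Tie1 were each at 1.15 CPM or less in the 14 libraries other than Ag 3, with Tie1 at 0 in Naive and both Tek and Tie1 at 0 in Ag+Costim. The 5 endothelial markers summed to 71.5 to 161 CPM in Naive, 37.9 to 277 CPM in Ag, highest in Ag 1 and Ag 4, and 30.6 to 59.7 CPM in Ag+Costim. What part cell states had in the Pde2a values was not tested.

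Among the other PDE genes, Pde3b separated Naive from both treated groups. It stood at 127, 107, 98.0, 110 and 121 CPM in Naive, 59.5, 55.0, 59.4, 56.5 and 35.4 CPM in Ag, and 50.6, 62.6, 58.6, 43.8 and 41.6 CPM in Ag+Costim. All treated libraries were below all Naive libraries, Ag 1 and Ag 4 included. In edgeR's quasi-likelihood fit over all genes, Pde3b fell in Ag relative to Naive (log2 fold change -0.9995 ± 0.14 SE, FDR 0.00581) and in Ag+Costim relative to Naive (-0.98 ± 0.14, FDR 0.00154). Between Ag+Costim and Ag its log2 fold change was 0.02 ± 0.14.

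Pde4b, a cAMP-specific PDE that T cells recruit during receptor signalling, was likewise highest in Naive and lowest in Ag+Costim by the mean. Its levels were 230, 164, 201, 202 and 60.2 CPM in Naive, 133, 30.7, 56.3, 133 and 31.8 CPM in Ag, and 38.6, 37.4, 39.4, 23.0 and 27.3 CPM in Ag+Costim. Ag 1 and Ag 4 were the highest of their group, Naive 5 was the lowest of its own, and Ag+Costim did not overlap with Naive. The log2 fold change of Ag+Costim relative to Naive was -2.21 ± 0.41 (FDR 0.00352), and -2.59 within the shared lane (FDR 0.0239).

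Pde7a showed the same order at lower levels. It stood at 75.3, 52.0, 45.7, 85.8 and 30.6 CPM in Naive, 69.8, 32.8, 21.2, 58.7 and 14.9 CPM in Ag, and 16.2 to 21.6 CPM in Ag+Costim, all below Naive. It fell in Ag+Costim relative to Naive by 1.44 on the log2 scale (SE 0.34, FDR 0.00819). Pde4d was scarce, at 8.56 to 19.4 CPM in Naive, 4.74 to 14.0 CPM in Ag and 3.67 to 9.49 CPM in Ag+Costim, with 1 Ag+Costim library, replicate 3, inside the Naive range. Its log2 fold change of Ag+Costim relative to Naive was -1.20 ± 0.32 (FDR 0.0133).

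Pde4a was the only tested PDE of the 10 genes that rose. It had 0.672 to 5.53 CPM in Naive, 3.17 to 13.2 CPM in Ag, where Ag 3 stood apart, and 5.48 to 6.73 CPM in Ag+Costim. Naive 5, the highest Naive library, lay inside the Ag+Costim range by a small margin. The log2 fold change of Ag+Costim relative to Naive was 1.40 ± 0.53 (FDR 0.0455), and this call was lost when any 1 library of these groups other than Naive 5 was left out (FDR 0.0517 to 0.103) and within the shared lane (FDR 0.124).

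Adcy7 encodes a major adenylyl cyclase of lymphocytes. Its level per transcript length, at a median of 77.1 CPM per kilobase in Naive and 26.1 in Ag+Costim, exceeded that of every other cyclase gene on the list in all 3 groups, the next being Adcy3 with 9.87 and 6.83. It stood at 531, 303, 414, 507 and 218 CPM in Naive, 376, 125, 144, 448 and 92.4 CPM in Ag, and 140, 141, 169, 122 and 140 CPM in Ag+Costim. The Ag values fell into a high pair, Ag 1 and Ag 4, within the Naive range, and 3 low values near Ag+Costim. Adcy7 fell in Ag+Costim relative to Naive by 1.31 on the log2 scale (SE 0.35, FDR 0.0135).

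Adora2a, the gene of a Gs-coupled adenosine receptor that suppresses T cells, moved the other way. It stood at 24.4, 14.3, 16.1, 16.9 and 21.4 CPM in Naive, 28.9, 20.8, 12.5, 41.01 and 14.4 CPM in Ag, and 45.0, 40.6, 51.4, 34.6 and 45.4 CPM in Ag+Costim. All Ag+Costim libraries were above all Naive libraries, and Ag 4 was the only Ag library inside the Ag+Costim range. It rose in Ag+Costim relative to Naive by 1.37 on the log2 scale (SE 0.25, FDR 0.00334). Relative to Ag the log2 fold change was 0.97 ± 0.25, the lowest unadjusted p of the 9 genes in that comparison, with an FDR of 0.0807. That call was gained without Ag 2 (FDR 0.0399) or without Ag 5 (FDR 0.0352).

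PKA subunits differed less. Prkar1a, the type I regulatory subunit, was the most abundant of the 10 genes, with a median level per kilobase of transcript of 222 CPM for Naive, 246 CPM for Ag and 277 CPM for Ag+Costim. It stood at 629 to 892 CPM in Naive, 733 to 838 CPM in Ag and 893 to 984 CPM in Ag+Costim, and the Ag+Costim range lay just above both others. It rose in Ag+Costim relative to Naive by 0.42 on the log2 scale (SE 0.12, FDR 0.0184), a call that was lost without Naive 1 (FDR 0.0543), without Naive 4 (FDR 0.0557) and within the shared lane (FDR 0.0922). Prkacb, a catalytic subunit, stood at 226, 198, 315, 264 and 244 CPM in Naive, 225, 121, 154, 231 and 99.4 CPM in Ag, and 132 to 154 CPM in Ag+Costim. It fell in Ag+Costim relative to Naive by 0.69 on the log2 scale (SE 0.17, FDR 0.0112), with the call lost without Ag+Costim 4 (FDR 0.0541).

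**Figure D2:**
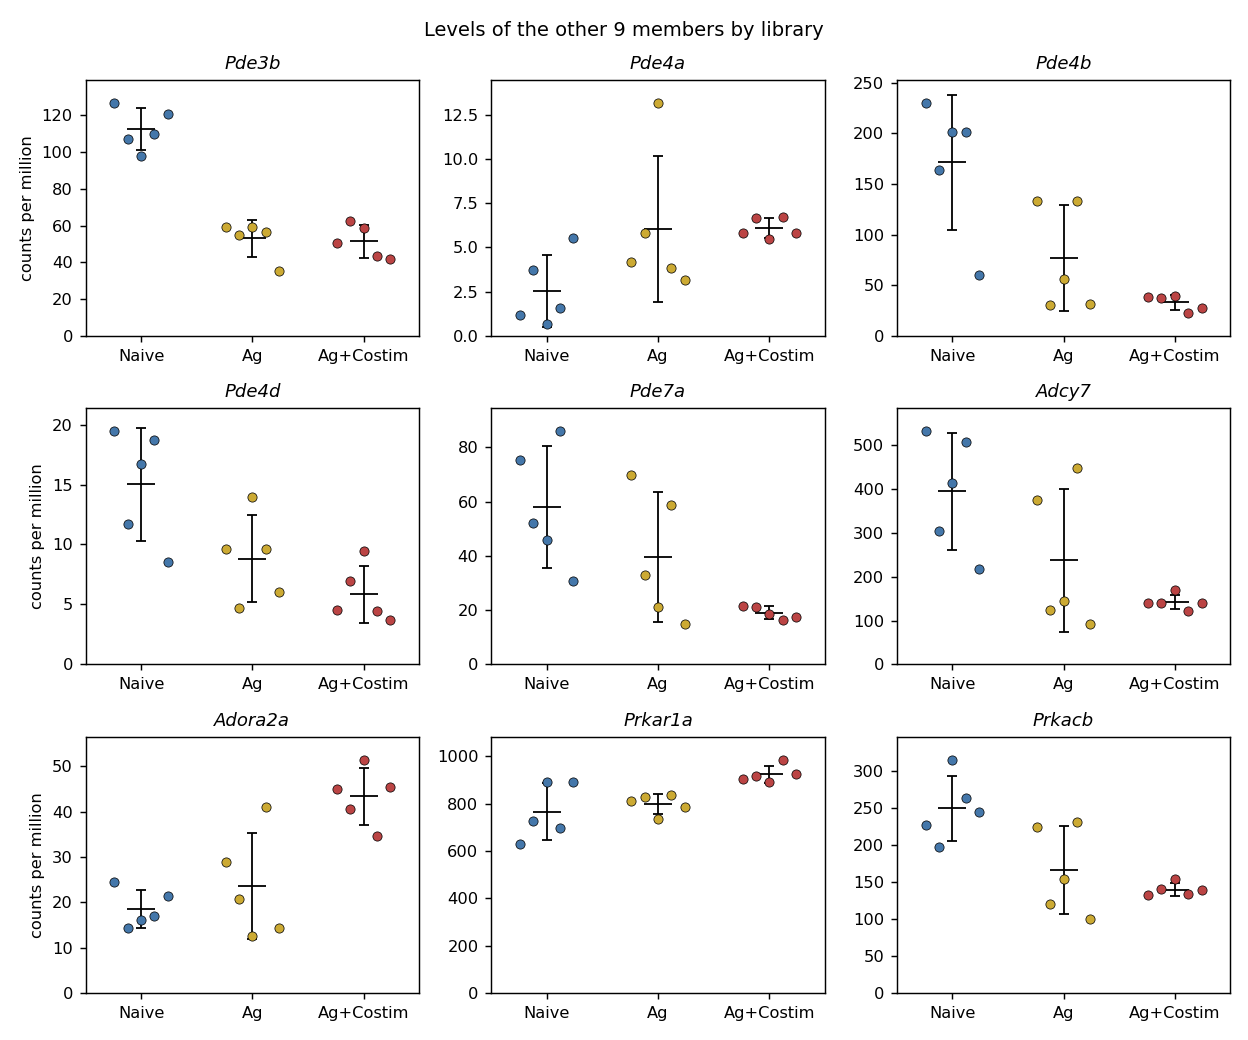
CPM of the 9 genes other than Pde2a in each library by group, with the mean and SD of 5 libraries in black; each axis starts at 0. Pde4b, Pde7a, Adcy7 and Prkacb in Ag split into Ag 1 and Ag 4 above Ag 2, Ag 3 and Ag 5, while Pde3b was at 35.4 to 59.5 CPM in all 5 Ag libraries.

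In counts of calls, all 9 genes other than Pde2a passed an FDR of 0.05 between Ag+Costim and Naive, 3 higher and 6 lower. That is to be read against 44.7% of all tested genes called in this comparison, 21% higher and 23.6% lower. The 9 genes were listed with earlier results of these data known, so their calls are not an independent result about the pathway. The median log2 fold change was -0.98 over the 9 genes and -0.076 over all tested genes. Within the lane shared by both groups 7 of the 9 were called, without Pde4a and Prkar1a. With lane as a term in the fit 4 were called, namely Pde3b, Pde4b, Pde4d and Adora2a. The share of all tested genes called is not given for either of these fits. The 44.7% is therefore no background for them.

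Between Ag and Naive 1 of the 9 was called, Pde3b, against 6.71% of all tested genes, with 3.05% higher and 3.66% lower. With lane as a term the log2 fold change of Pde3b was -1.40 (FDR 0.202). DESeq2 called 3 of the 9, Pde3b, Pde4b and Prkacb. Without Naive 5 the edgeR fit called 3, Pde3b, Pde4a and Pde4b, without Ag 4 it called Pde3b, Pde4b and Prkacb, and without Ag 1 it called Pde3b and Prkacb. For these other fits the share of all tested genes called is not given.

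Between Ag+Costim and Ag edgeR called 0 of the 9, against 0.0346% of all tested genes. At an unadjusted p under 0.05 it had 4 of the 9, Adora2a, Prkar1a, Pde4b and Pde7a, against 26.8% of all genes. DESeq2 called 3, Adora2a, Pde4b and Pde7a, against 14.6% of all genes with an adjusted p, and limma voom with sample quality weights called 7 against 64.5%. Leaving out Ag 5 gave 3 calls in edgeR and leaving out Ag 2 gave 1, with no share of all genes given for these fits. In the lane shared by these groups, where Ag+Costim 1 to 3 met all 5 Ag libraries, edgeR called 0, and the log2 fold changes of Adora2a, Pde4b and Pde7a were 1.05, -0.87 and -0.83. The 3 comparisons share libraries, so their values are not independent.

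**Figure D3:**
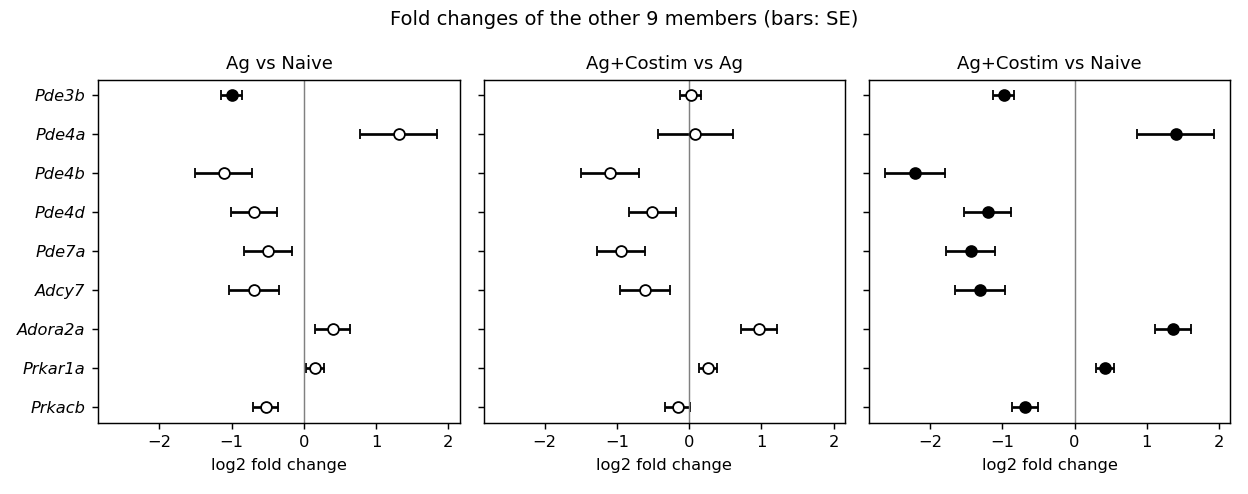
Log2 fold changes with SE of the 9 genes other than Pde2a in the 3 comparisons, from the edgeR fit over all genes; filled points passed an FDR of 0.05. Filled points are Pde3b in Ag vs Naive, none in Ag+Costim vs Ag, and all 9 in Ag+Costim vs Naive.

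Per transcript length the mix of PDE genes could be compared. The 16 genes of cAMP-hydrolysing PDEs summed to 79.5 to 182 CPM per kilobase of transcript in Naive, 29.03 to 120 in Ag and 21.8 to 33.9 in Ag+Costim. In Naive the leading genes were Pde4b with a median share of 37.4%, Pde2a with 34.2%, Pde3b with 11.8% and Pde7a with 9.35%. In Ag+Costim they were Pde4b with 39.4%, Pde3b with 30.2% and Pde7a with 13.5%, and Pde2a had 1.02%. With Gm45837 added to Pde2a, the median share of the locus was 37.2% for Naive, 24.7% for Ag and 21.8% for Ag+Costim. The level of Pde4b per kilobase was 64.1 CPM in Naive and 12.1 CPM in Ag+Costim by the medians.

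**Figure D4:**
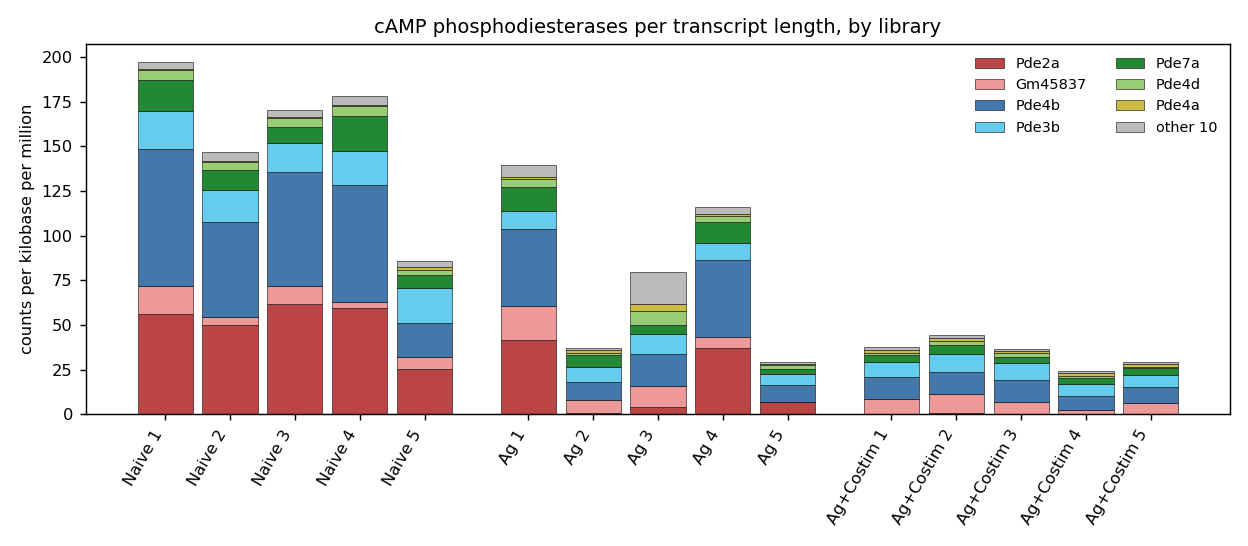
Level per transcript length (CPM per kilobase) of each cAMP phosphodiesterase gene in each library, stacked, with Gm45837 drawn beside Pde2a and the other 10 genes pooled. The Naive stacks reach 86.1 to 197 with Gm45837 included, Ag 1 and Ag 4 lie in the same range, and the Ag+Costim stacks reach 24.1 to 44.4.

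Transcript choice within the genes was examined as the share of each transcript in its gene. Of the 9 genes with at least 2 transcripts passing the filter (all but Adora2a), 0 had a usage call in edgeR's diffSpliceDGE between Ag and Naive (1.07% of 7501 genes called), 1 between Ag+Costim and Ag (1.44% called) and 1 between Ag+Costim and Naive (6.61% called). In both cases the gene was Pde2a and the transcript Pde2a-205, whose mean share was 1.26% for Naive, 12.4% for Ag and 25.0% for Ag+Costim. These shares use the counts by which Pde2a was chosen, so nothing is read from the call. The Ag+Costim share rests on 7 counts of Pde2a-205 among 18 for the gene, and limma's diffSplice called 0 of the 9 genes in either comparison. For the other 8 genes the FDR was 0.247 or more in every comparison. Pde4b was made mostly of Pde4b-203 (mean share 66.9% for Naive, 58.8% for Ag and 56.3% for Ag+Costim) and Pde4b-207. Prkacb was divided between Prkacb-201 (63.4%, 48.7% and 58.8%) and Prkacb-202 (34.5%, 48.9% and 40.0%), with 0 usage calls for either gene.

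A wider list of 112 pathway genes, grouped by role, gives the surroundings. It too was drawn up with earlier results of these data known. Counts were found for 111 and 76 were tested. Between Ag+Costim and Naive 9 of the 76 rose and 27 fell, against 21% higher and 23.6% lower among all tested genes, with a median log2 fold change of -0.52. With lane as a term 6 of the 76 were called. The shares by role are to be read against the same background of 44.7% called, and most roles hold few tested genes. Between Ag and Naive 5 rose and 6 fell, against 3.05% higher and 3.66% lower among all tested genes, and with lane as a term 0 were called. Between Ag+Costim and Ag edgeR called 0, against 0.0346% of all tested genes, with 22 at an unadjusted p under 0.05, against 26.8%. DESeq2 called 15, against 14.6% of all genes with an adjusted p, and voom 49, against 64.5%. Without Ag 2 edgeR called 19 and without Ag 5 it called 21. The share of all tested genes is not given for fits with lane as a term or a library left out. Those counts therefore have no background beside them. Crem stands in 2 of the role lists.

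On the supply side, of 7 tested genes that make, move or remove adenosine, 2 rose in both treated groups relative to Naive and 5 were not called, where 21% of all tested genes rose in Ag+Costim and 3.05% in Ag. Slc29a1, the equilibrative nucleoside transporter, stood at 45.6 to 111 CPM in Naive and 129 to 156 CPM in Ag+Costim (log2 fold change 1.25 ± 0.22, FDR 0.00315), and Adk, adenosine kinase, at 80.2 to 125 and 155 to 166 CPM (0.85 ± 0.16, FDR 0.00376).

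Among 8 tested Gs-coupled receptors other than Adora2a, 4 fell between Ag+Costim and Naive and 4 were not called, where 44.7% of all tested genes were called and 23.6% were lower. Vipr1, a receptor for vasoactive intestinal peptide, was at 27.7 to 91.1 CPM in Naive and 1.09 to 2.75 CPM in Ag+Costim (-4.63 ± 1.03, FDR 0.00683). Calcrl, part of the receptors for CGRP and adrenomedullin, fell as well (-2.06 ± 0.48, FDR 0.00836), and Gpr65, a proton-sensing receptor, fell by 0.52 (SE 0.15, FDR 0.0182). Ptger2, a prostaglandin E2 receptor, rose in Ag relative to Naive (1.77 ± 0.43, FDR 0.028), where it ranged from 6.03 to 47.2 CPM. In Ag+Costim the leading receptors by level per kilobase were Gpr65 and Adora2a, with medians of 19.8 and 17.4 CPM.

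Further down the pathway, 2 of 4 tested G protein alpha subunits rose in Ag+Costim relative to Naive, Gnai2 (0.64 ± 0.13, FDR 0.00419) and Gnai3 (0.45 ± 0.14, FDR 0.0214), both of which inhibit adenylyl cyclase. Of 3 tested cyclases other than Adcy7, Adcy6 and Adcy8 fell, each from a low level (medians of 8.59 and 0.533 CPM in Naive). Of 6 other tested cAMP PDEs, 2 fell, Pde11a and Pde1b, both with medians under 5 CPM in Naive. The 4 PKA subunits other than Prkar1a and Prkacb were not called. Pkig, a PKA inhibitor, rose (1.43 ± 0.48, FDR 0.0297), with medians of 2.81 CPM in Naive and 11.6 CPM in Ag+Costim. Of cAMP effectors outside PKA, Rapgef4 (EPAC2, an exchange factor for Rap1) was at 17.3 to 118 CPM in Naive, 3.76 to 40.2 CPM in Ag and 0.727 to 3.14 CPM in Ag+Costim (-4.79 ± 0.73, FDR 0.00174), while Popdc2, a cAMP-binding membrane protein, rose (2.30 ± 0.68, FDR 0.0189). Popdc2 had medians of 2.54 CPM in Naive and 20.7 CPM in Ag+Costim.

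A-kinase anchoring proteins, which place PKA at sites in the cell, gave 8 lower and 0 higher of 13 tested, and 5 were not called, where 44.7% of all tested genes were called and 23.6% were lower. The largest calls were Akap5 (-2.51 ± 0.65, FDR 0.0123), Akap8l (-2.24 ± 0.52, FDR 0.00781), Akap2 (-1.76 ± 0.47, FDR 0.0134) and Akap9 (-1.62 ± 0.37, FDR 0.00754). Akap5 was scarce, with medians of 6.19 CPM in Naive and 0.852 CPM in Ag+Costim. Among 8 tested CREB family members and coactivators, the transcription factors that PKA acts on and their partners, Crtc3 (-2.12 ± 0.36, FDR 0.00257), Crebbp (-1.08 ± 0.25, FDR 0.00793) and Ep300 (-0.82 ± 0.22, FDR 0.0133) fell and Atf1 rose (0.58 ± 0.19, FDR 0.0256). Of 12 tested CREB target genes 5 fell and 1 rose, beside 23.6% lower and 21% higher among all tested genes. The immediate early gene Fos fell (-3.72 ± 1.08, FDR 0.0176), as did Rgs2, a regulator of G protein signalling (-1.48 ± 0.28, FDR 0.00396), and the nuclear receptor gene Nr4a1 (-1.47 ± 0.42, FDR 0.0172). Fos was scarce, with medians of 4.63 CPM in Naive and 0.468 CPM in Ag+Costim. Nr4a2, a relative of Nr4a1, rose (1.79 ± 0.54, FDR 0.0196), also at low levels (medians of 1.23 and 4.13 CPM). In the arm by which PKA restrains the receptor kinase Lck through Csk, the adaptor Pag1 fell (-1.16 ± 0.25, FDR 0.00642) and Ptpn22 rose (0.25 ± 0.09, FDR 0.0427). Guanylyl cyclases gave 1 tested gene, which was not called, and of 3 tested cyclic GMP-specific PDEs Pde5a fell (-2.38 ± 0.82, FDR 0.032). Pde5a was scarce, with medians of 1.98 CPM in Naive and 0.393 CPM in Ag+Costim.

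**Figure D5:**
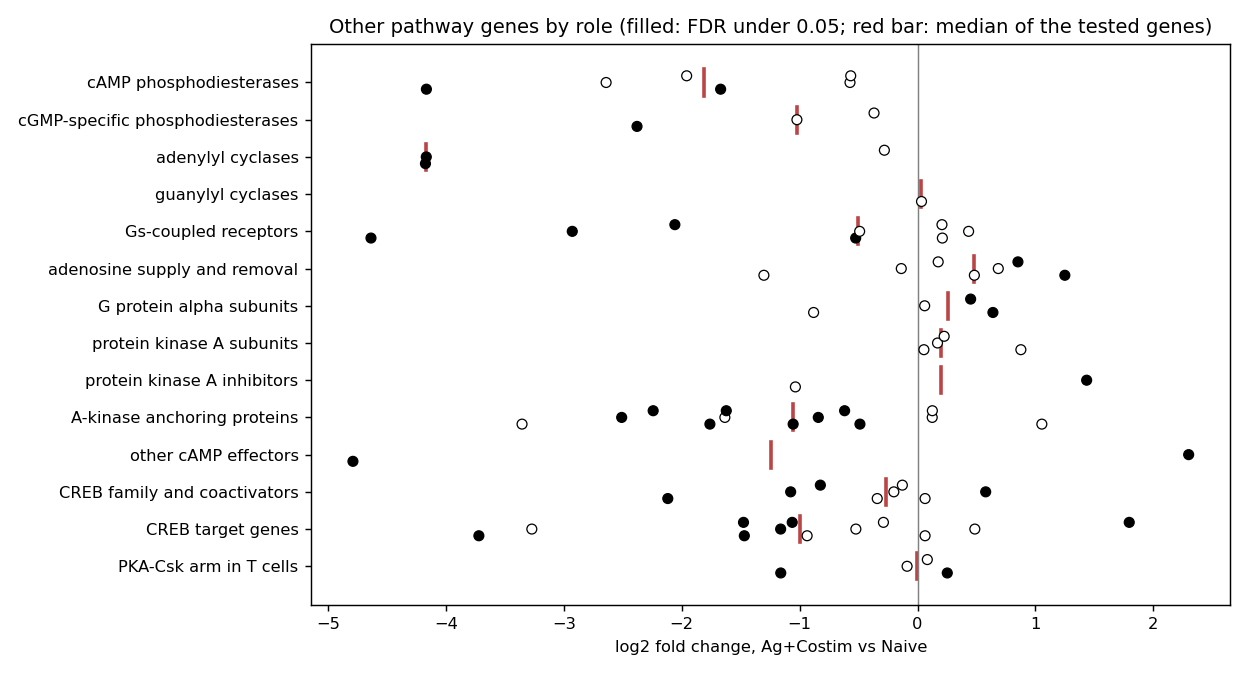
Log2 fold change of Ag+Costim relative to Naive for the tested pathway genes other than the 10, by role; filled points passed an FDR of 0.05 and red bars mark the median of the tested genes of a role. The A-kinase anchoring proteins hold 8 filled points, all below 0, and the adenosine genes hold 2, both above 0.

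The genes most like Pde2a over the 15 libraries, by Pearson's r of log2(CPM + 1) among 12149 genes, were Fam120c (r = 0.96), Gm19246 (0.96), Atp8a1 (0.96), Gm11572 (0.95) and Rps27 (0.95). Their r with the sum of Pde2a and Gm45837 was 0.86, 0.93, 0.94, 0.93 and 0.93. By likeness to the sum they ranked 1494, 290, 143, 334 and 315, so the choice of these genes rests on the counts assigned to Pde2a alone. Atp8a1, a phospholipid flippase, was at 25.4 to 50.8 CPM in Naive, 10.7 to 46.2 CPM in Ag and 7.52 to 12.6 CPM in Ag+Costim. These correlations span 3 groups and libraries of different state and describe likeness only. Arap1, the next gene upstream of Pde2a, was at 58.0 to 95.6 CPM in Naive, 25.3 to 114 CPM in Ag and 46.7 to 56.0 CPM in Ag+Costim and was not called in any comparison. Of the 3 tested genes on each side of Pde2a, Gm45548 and Gm35363 fell and Gm7027 rose between Ag+Costim and Naive. In that comparison 44.7% of all tested genes were called. Gm45548 and Gm35363 were scarce, with medians of 0.838 and 0.316 CPM in Naive and 0.19 and 0 CPM in Ag+Costim. In the other comparisons 0 of 6 were called.

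Promoters were searched for the cAMP response element TGACGTCA and its shorter form TGACG (on either strand, and contained in the full element), in the 250 bases before each RefSeq start of GRCm38.p6. The table held 25 such windows for 7 of the 10 genes. One window, of Prkar1a, held the full element, against 1.55% of all 32851 windows. The shorter form was found in 7 of 25 windows against 17.8% of all, in Adcy7, Pde4a, Pde4b, Prkacb and Prkar1a and in 0 of the 5 windows of Pde2a. Some windows of a gene overlap, so the same bases can be counted repeatedly, as with a shorter form in Prkar1a. The windows are therefore not independent. The full element of Prkar1a, 49 bases before the start on the plus strand (chr11:109650889-109650918), is shown with the element in capitals.
Prkar1a: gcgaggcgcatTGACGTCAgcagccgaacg
A match or its absence in these windows describes the letters only.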

How the data were processed

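Poly(A) RNA of 15 mouse CD8+ T cell libraries was amplified with SMART-Seq v4 and made into Nextera XT libraries, which do not mark strand. Per the labels, the authors aligned reads to mm10 with HISAT2 2.1.0 and SAMtools 1.9. The deposited gene and transcript tables hold StringTie 2.1.0 estimated counts as whole numbers, not normalised. The annotation is not given in the sources used here; 55536 of 81881 entries matched GENCODE M21, and the rest held 0.0818% of counts. The deposited FPKM table was not used, since 2 of its columns hold identical values. A deposited sheet of the sequencing core gave the percent of reads aligned; lanes were taken from the read file names in the labels and match the positions on that sheet. Genes were kept by filterByExpr (17366), scaled by TMM and tested with edgeR 4.0.16 (quasi-likelihood, 1 coefficient per group, all 15 libraries, Benjamini-Hochberg FDR under 0.05, R 4.3.3). Usage calls needed a gene and a transcript FDR under 0.05 and a share change of 10 points. Alternatives used DESeq2 1.42.0, limma 3.58.1, other scalings and filters, lane, a replicate block and left-out libraries. Functions were tested on simulated data. Within-group library pairs all differed beyond sampling noise (lowest chi-square per degree of freedom 5.62). The members and lists were chosen with earlier results of these data known. Named pathway genes were the called genes of a list with the largest fold changes (up to 4), the 5 genes most like Pde2a and 3 tested neighbours on each side. Adding Gm45837 to Pde2a was chosen after the data were seen. Some genes are not reported here.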

Additional observations from a re-analysis of the deposited data

Results flagged for a closer look

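Of 36 checks for a library far from the other 4 of its group, over the 10 genes, Gm45837 and the sum of both models, 2 passed the 95% limit, and chance alone gives about 1 in 20. Pde3b in Ag 5, at 35.4 CPM, was far below the other 4 Ag libraries (55.0 to 59.5 CPM). Pde4a in Ag 3, at 13.2 CPM, was far above the other 4 Ag libraries (3.17 to 5.84 CPM), and Ag 3 is also the library with the lowest total and the highest erythroid markers. Neither library's part in a cause was tested.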

How the results depend on the processing

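The number of genes called out of the 9 tested depended on the fit. Beyond the main fit, shares of all genes are given only for DESeq2 and voom between Ag+Costim and Ag (14.6% and 64.5%). The other counts here and for the wider list have no such background beside them. Between Ag and Naive, where edgeR called 1, DESeq2 gave 3, voom 4, only the 10 libraries of the comparison 0, lane as a term 0, and leaving out Ag 3 and Naive 5 together 3, with 1 to 3 over single left-out libraries. Between Ag+Costim and Ag the 0 became 3 with DESeq2 and 7 with voom, with 0 to 3 over left-out libraries. Between Ag+Costim and Naive the 9 became 4 with lane as a term and ran from 7 to 9 over left-out libraries. For the wider pathway list the 11 called between Ag and Naive became 20 with DESeq2, 2 without a filter, 32 with voom, 0 with only the 10 libraries, 0 with lane as a term and 21 without Ag 3 and Naive 5, and ran from 3 to 21 over left-out libraries (3 without Naive 1 or Naive 3, 4 without Naive 4, 6 without Ag 5, 7 without Ag 2 or Ag+Costim 1, 2, 3 or 5, and 21 without Naive 5). The 0 between Ag+Costim and Ag became 15 with DESeq2, 49 with voom and 2 without Ag 3 and Naive 5, and ran from 0 to 21, with 19 without Ag 2 and 21 without Ag 5. The 36 between Ag+Costim and Naive became 22 without a filter, 57 with voom and 6 with lane as a term, and ran from 24 to 41. Usage calls for Pde2a were 0 with limma in both comparisons and 0 to 1 over left-out libraries. The causes were not tested.

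Signs changed only for values near 0 between Ag+Costim and Ag, for Pde3b (-0.061 with library totals alone, -0.063 to 0.18 over left-out libraries), Pde4a (-0.050 to 0.59 over left-out libraries) and Prkacb (0.11 without a filter). With the replicate block the members called were 1, 0 and 9 in the 3 comparisons, as without it, and the pathway genes 13, 0 and 34. Same-numbered libraries did not deviate together in every pair (correlations from -0.32 to 0.47), so the numbers were not taken to pair the samples. Ag 3, with 4865952 counts, limits the precision of its low values most.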
